A study of Mus musculus with 6 samples.

Results

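The genes described here encode the enzymes that make serine and those that load, oxidise and release one-carbon units on folate in mitochondria and cytosol. They were measured in natural killer (NK) cells of the mouse, lymphocytes of the innate immune system that lyse virus-infected and tumour cells and release cytokines. The members were named in advance as 10 genes (Phgdh, Psat1, Psph, Shmt1, Shmt2, Mthfd1, Mthfd2, Mthfd1l, Mthfd2l and Aldh1l2), and a gene's value was the mean of the probe sets that the platform annotation assigns to that symbol alone. All 10 were measured, each by 1 probe set, among 19943 genes. The choice used no measured value in its rule, but it was made with earlier results of these arrays known.

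The study compared NK cells generated with IL-18 with unstimulated NK cells, in 3 independent preparations of each, with 1 array per preparation. IL-18 generated cells were kept overnight in medium with 300 IU IL-2 and 25 ng/ml IL-18, and were then sorted by flow cytometry as c-kit positive cells that lacked CD11b. Unstimulated cells were sorted as CD11b positive cells that lacked c-kit. Both gates took live cells with NK1.1 and without CD3. The labels print 1 culture protocol for all samples, so whether the unstimulated cells were cultured or had IL-2 is unclear, and the sources used here give neither mouse strain nor age. IL-18, culture and sort gate therefore cannot be told apart in any difference below, and the unstimulated cells are a population of another CD11b and c-kit phenotype as well as an untreated one.

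Serine is made from 3-phosphoglycerate, an intermediate of glycolysis, in a chain of 3 reactions catalysed by PHGDH, PSAT1 and PSPH. Serine hydroxymethyltransferases (SHMT1 in the cytosol, SHMT2 in mitochondria) split serine into glycine and a one-carbon unit carried by tetrahydrofolate. In mitochondria MTHFD2 or MTHFD2L oxidises that unit and MTHFD1L releases it as formate, which the cytosolic enzyme MTHFD1 puts back on folate for purine and thymidylate synthesis. ALDH1L2, also mitochondrial, oxidises the formyl group to carbon dioxide and yields NADPH. Activated and dividing lymphocytes are known to use this route, and ATF4 and MYC are known transcriptional activators of several of its genes.

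Each log2 value is relative to its probe set's median over the 6 arrays, so differences can be read but levels cannot, and no gene can be called abundant or absent. Where the groups do not overlap, this centring places 0 midway between the lowest array of the higher group and the highest array of the other, so those 2 values mirror each other by construction. Array medians over all genes lay between -0.025 and 0.039. Kit, which encodes c-kit, and Itgam, which encodes CD11b, followed their gates. Their log2 changes (IL-18 generated minus unstimulated) were 2.79 ± 0.13 and -5.32 ± 0.11. Here and in all later changes, ± is limma's SE with 3 arrays in each group, whose variance is drawn towards that of all genes. Klrb1c, the NK1.1 gene, had a change of -2.03 ± 0.11 although both gates were NK1.1 positive. Both gates also lacked CD3, while the CD3 genes Cd3g, Cd3e and Cd3d had changes of 1.60 ± 0.20, 1.26 ± 0.21 and 1.11 ± 0.14. Cd247, which encodes the CD3 zeta chain, had a change of -1.32 ± 0.08. The cause of these differences was not tested.

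In IL-18 generated cells, 9 of the 10 enzyme genes rose at a limma adjusted p below 0.05, 0 fell, and Mthfd2l did not pass. Over all 19943 genes, 19.7% were called higher and 16.7% lower by the same rule. The median change of the 10 genes was 1.95, against -0.06 over all genes. With a change of at least 1 required as well, 7 of the 10 were higher, against 3.62% of all genes. Mthfd2 had the largest change of the 10, 11.4-fold, followed by Psat1 at 6.44-fold and Shmt2 at 5.8-fold. Among all genes, 6 of the 10 lay in the upper 1% by change and 8 in the upper 5%. For all 10, every IL-18 generated array was above every unstimulated one, which was so for 22.9% of all genes. RNA came from sorted populations, in which a change in the cells present and a change in RNA per cell cannot be told apart.

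**Figure D1:**
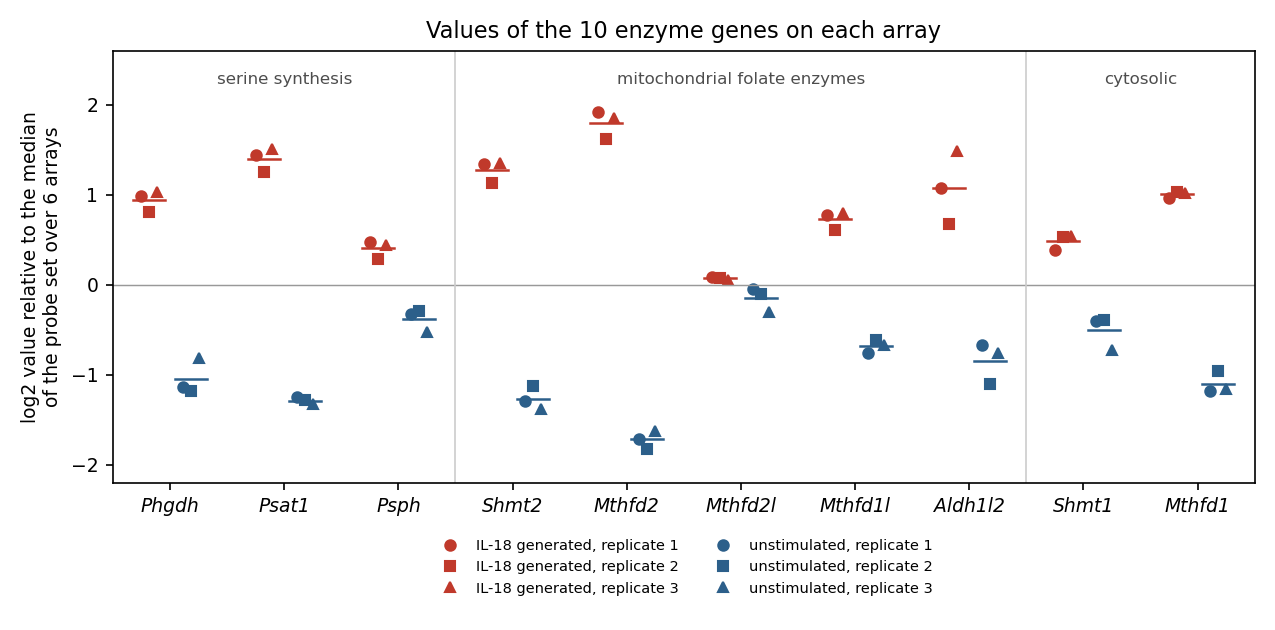
Log2 value of each enzyme gene on every array, relative to the gene's median over all 6. Red symbols are IL-18 generated and blue symbols unstimulated preparations, circle, square and triangle mark replicates 1, 2 and 3, and short lines are group means. The groups are apart for all 10 genes, widest for Mthfd2 with a gap of 3.24 and narrowest for Mthfd2l with 0.11.

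Sequences upstream of the genes are given because 9 of the genes moved together, and short motifs were searched in the 250 bases before each annotated start on both strands. RefSeq's promoter windows (GRCm38.p6) were found for 9 of the 10 genes, with 2 starts for Psat1, which made 10 windows. These are not the 9 genes that rose, since Aldh1l2, which rose, had no window and Mthfd2l, which did not pass, had 1. The windows shown belong to the 3 genes with the largest changes, to Phgdh as the entry enzyme and to Mthfd2l as the gene that did not pass, each 5′ to 3′ in the direction of transcription, with matches to CCAAT or its reverse complement ATTGG in capitals. They are chr6:83317605-83317854 for Mthfd2, chr19:15925060-15925309 for the upstream start of Psat1, chr10:127522445-127522694 for Shmt2, chr3:98339970-98340219 for Phgdh (all on the minus strand) and chr5:90930946-90931195 for Mthfd2l (plus strand).
Mthfd2: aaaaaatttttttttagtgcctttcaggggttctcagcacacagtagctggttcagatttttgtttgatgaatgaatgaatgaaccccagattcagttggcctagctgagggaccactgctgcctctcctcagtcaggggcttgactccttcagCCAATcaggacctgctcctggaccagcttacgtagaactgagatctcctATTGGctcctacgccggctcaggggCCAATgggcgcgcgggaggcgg
Psat1: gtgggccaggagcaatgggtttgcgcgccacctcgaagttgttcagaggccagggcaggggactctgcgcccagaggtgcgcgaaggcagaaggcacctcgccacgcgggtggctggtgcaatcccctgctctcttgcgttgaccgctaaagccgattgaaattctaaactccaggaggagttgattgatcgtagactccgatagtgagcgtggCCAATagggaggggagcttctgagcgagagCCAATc
Shmt2: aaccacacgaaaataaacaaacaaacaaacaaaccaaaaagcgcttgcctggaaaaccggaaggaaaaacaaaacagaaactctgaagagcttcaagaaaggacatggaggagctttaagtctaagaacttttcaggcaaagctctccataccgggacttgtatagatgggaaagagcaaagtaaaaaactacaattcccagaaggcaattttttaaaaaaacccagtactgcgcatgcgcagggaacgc
Phgdh: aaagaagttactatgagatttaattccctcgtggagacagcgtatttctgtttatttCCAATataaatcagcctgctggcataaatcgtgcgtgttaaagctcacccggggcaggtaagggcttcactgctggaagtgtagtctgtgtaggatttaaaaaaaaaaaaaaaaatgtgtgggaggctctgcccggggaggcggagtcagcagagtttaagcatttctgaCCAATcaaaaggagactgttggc
Mthfd2l: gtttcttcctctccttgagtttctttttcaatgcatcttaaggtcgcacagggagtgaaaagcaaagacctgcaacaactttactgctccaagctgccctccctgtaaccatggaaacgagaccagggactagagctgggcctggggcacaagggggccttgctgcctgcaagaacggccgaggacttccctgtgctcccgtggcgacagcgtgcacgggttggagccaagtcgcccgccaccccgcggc

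CCAAT, the core bound by the factor NF-Y, was present in 6 of the 10 windows, those of Phgdh, Psat1, Psph, Mthfd2, Shmt1 and Mthfd1, and in 33.8% of 32851 mouse windows of the same length. Mthfd2 held 3 copies, which begin 96, 47 and 22 bases before the start, while the windows of Shmt2, Mthfd1l, Mthfd2l and the downstream start of Psat1 held none. The letters TGATGNAA, the core of the C/EBP-ATF response element that ATF4 binds with its partners, were in 0 of the 10 windows and in 3.45% of all. The E-box CACGTG, which MYC and its partners bind, was in 0 of the 10 and in 6.02% of all. The antioxidant response element core TGACNNNGC was in 1 of the 10, that of Phgdh, and in 10.2% of all. No match overlapped another motif searched. These counts describe letters in these windows alone and show neither binding nor its absence.

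The genes of serine synthesis all rose, the second step most. Phgdh, the entry enzyme, had values of 0.99, 0.81 and 1.03 in IL-18 generated replicates 1 to 3, against -1.14, -1.18 and -0.81 in unstimulated replicates 1 to 3. Every IL-18 generated array was above every unstimulated array, and the change was 1.98 ± 0.11 or 3.96-fold (adjusted p 3.73e-07). A second probe set, annotated to both Phgdh and Gm6756 and therefore left out by the rule, gave 2.16 ± 0.10 in a fit over all probe sets, where the Phgdh probe set gave 1.98 ± 0.11.

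Psat1, the aminotransferase of the second step, read 1.44, 1.25 and 1.51 in IL-18 generated cells and -1.25, -1.28 and -1.33 in unstimulated cells. The unstimulated arrays lay within an SD of 0.04, the tightest of the 10 genes in that group. The change was 2.69 ± 0.08, or 6.44-fold (adjusted p 1.91e-08), and 0.221% of all genes had a larger one. Psph, the phosphatase of the last step, read 0.48, 0.29 and 0.44 in IL-18 generated cells, against -0.32, -0.29 and -0.52 in unstimulated cells. The groups were apart by 0.57, a smaller gap than for the first 2 enzymes. Its change, 0.78 ± 0.09 or 1.72-fold (adjusted p 6.59e-05), was the smallest among the 9 genes that rose.

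Mitochondrial folate enzymes included both the largest and the smallest change. Shmt2, which loads the one-carbon unit in mitochondria, read 1.34, 1.13 and 1.35 in IL-18 generated cells and -1.29, -1.13 and -1.38 in unstimulated cells. It rose by 2.54 ± 0.09, or 5.8-fold (adjusted p 3.83e-08). Its upstream window, printed above, held none of the 4 motifs.

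Mthfd2, the dehydrogenase and cyclohydrolase of the next step, had values of 1.92, 1.62 and 1.85 in IL-18 generated cells, against -1.71, -1.82 and -1.62 in unstimulated cells. The lowest IL-18 generated array was 3.24 above the highest unstimulated array. Its change of 3.51 ± 0.10 (adjusted p 6.84e-09) ranked 13 among 19943 genes, and single array pairs gave ratios of 9.46 to 13.4.

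Mthfd2l encodes a second mitochondrial enzyme of the same step. It read 0.09, 0.07 and 0.05 in IL-18 generated cells, against -0.05, -0.10 and -0.30 in unstimulated cells. The groups were apart by 0.11, and unstimulated replicate 3 was the farthest from the rest. The change was 0.22 ± 0.08, with a 95% confidence interval of 0.03 to 0.41, and it did not pass (adjusted p 0.0635). Over 14 alternative fits the adjusted p ran from 0.0319 to 0.212. It passed in 4 of them: eBayes with trend, array weights, quantile normalization and arrays centred on their medians. Without unstimulated replicate 3 the change was 0.15. Since levels cannot be read, whether Mthfd2l was detected in either group is not known.

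Mthfd1l, which releases formate, read 0.77, 0.61 and 0.80 in IL-18 generated cells and -0.76, -0.61 and -0.67 in unstimulated cells. It rose by 1.41 ± 0.08, or 2.65-fold (adjusted p 6.17e-07). Aldh1l2 read 1.07, 0.67 and 1.49 in IL-18 generated cells, against -0.67, -1.10 and -0.76 in unstimulated cells. Its arrays were the most spread of the 10 genes in both groups, with SDs of 0.41 and 0.23, where the median SD over all genes was 0.08 in IL-18 generated and 0.11 in unstimulated cells. It rose by 1.92 ± 0.18 (adjusted p 1.51e-05), with array pairs giving ratios of 2.55 to 6.03.

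The cytosolic enzymes rose as well. Shmt1 read 0.39, 0.53 and 0.54 in IL-18 generated cells, against -0.40, -0.39 and -0.72 in unstimulated cells, a change of 0.99 ± 0.10 or 1.99-fold (adjusted p 2.48e-05). Mthfd1, the trifunctional enzyme that puts formate back on folate, read 0.96, 1.03 and 1.02 in IL-18 generated cells and -1.18, -0.96 and -1.16 in unstimulated cells. It rose by 2.10 ± 0.08, or 4.3-fold (adjusted p 5.11e-08), and its IL-18 generated arrays lay within an SD of 0.04.

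**Figure D2:**
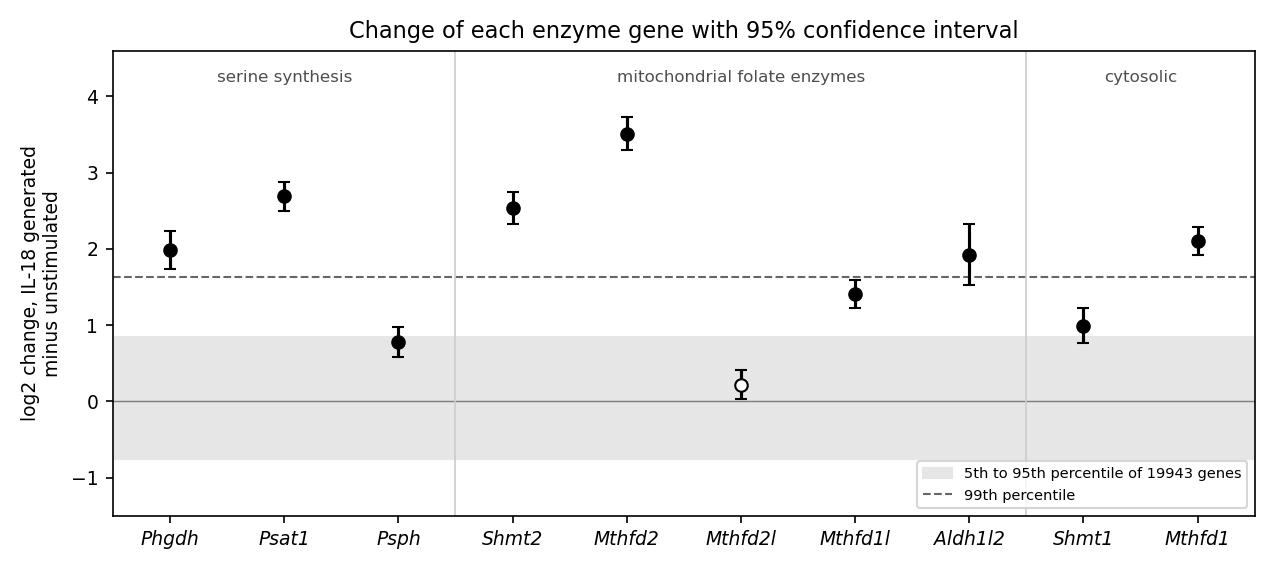
Log2 change of each enzyme gene, IL-18 generated minus unstimulated, with its 95% confidence interval from limma (n = 3 arrays per group). Filled points passed an adjusted p of 0.05 and the open point, Mthfd2l, did not. The grey band spans the 5th to 95th percentile of all genes (-0.76 to 0.84) and the dashed line is the 99th percentile (1.63), which 6 of the 10 genes exceed.

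Ordered by change, the genes ran Mthfd2, Psat1, Shmt2, Mthfd1, Phgdh, Aldh1l2, Mthfd1l, Shmt1, Psph and Mthfd2l. The 95% confidence intervals overlapped between Psat1 (2.50 to 2.88) and Shmt2 (2.33 to 2.75), and among Mthfd1 (1.92 to 2.29), Phgdh (1.74 to 2.23) and Aldh1l2 (1.52 to 2.33). They also overlapped between Aldh1l2 and Mthfd1l (1.22 to 1.59) and between Shmt1 (0.77 to 1.22) and Psph (0.58 to 0.98). As rounded, the intervals of Shmt2 and Aldh1l2 met at 2.33 and those of Mthfd1l and Shmt1 at 1.22. Overlap of intervals is no test of a difference, and none was run within these sets, so the order within them is not settled. The interval of Mthfd2, 3.30 to 3.73, lay above all others, and that of Mthfd2l below all others.

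Partner enzymes of one reaction were compared by subtracting their values on each array, in 4 comparisons. Each gene has a single probe set, so unequal probe response cannot be told apart from a shift in the ratio of the RNAs. Shmt2 minus Shmt1 averaged 0.78 ± 0.17 in IL-18 generated cells and -0.76 ± 0.11 in unstimulated cells (SD, n = 3 each), so the mitochondrial gene rose by 1.54 more, a 2.91-fold shift in the ratio of their array values. The release and the reuptake of formate went the other way. Mthfd1l minus Mthfd1 averaged -0.28 ± 0.13 in IL-18 generated cells and 0.42 ± 0.07 in unstimulated cells, so the mitochondrial gene rose by less, with a difference of -0.70. Mthfd2 minus Mthfd1 differed by 1.41, with means of 0.79 ± 0.19 in IL-18 generated and -0.62 ± 0.22 in unstimulated cells. Mthfd2 minus its mitochondrial paralog Mthfd2l differed by 3.29, with means of 1.73 ± 0.15 and -1.57 ± 0.21 in the same groups. In each of the 4 the groups were apart, and the exact two-sided permutation test gave p = 0.1 for each, also after adjustment over the 4, which is the smallest p that 3 against 3 arrays allow, so this test could not have passed 0.05.

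**Figure D3:**
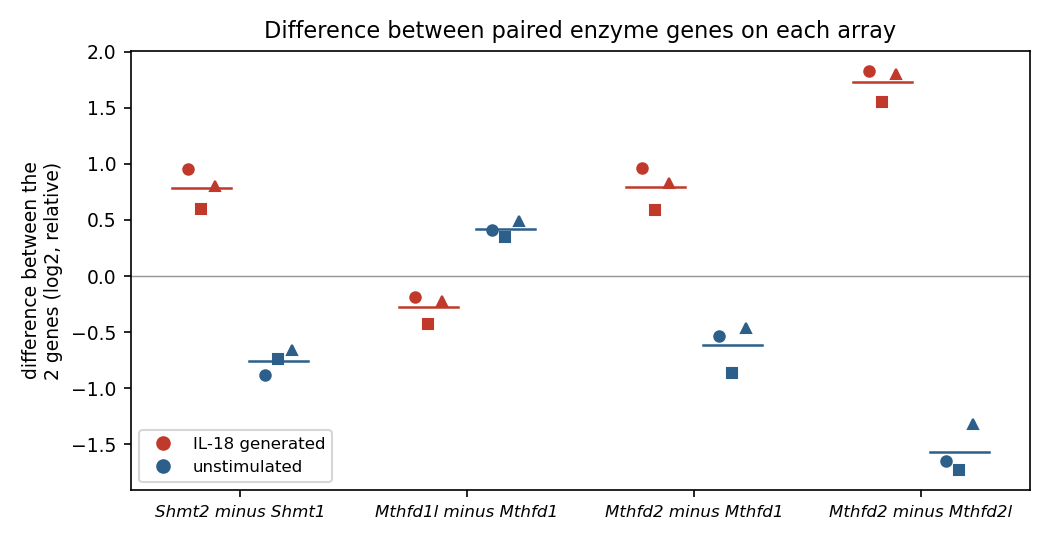
Difference between the values of paired enzyme genes on each array (log2, each gene relative to its own median), with IL-18 generated arrays in red left of unstimulated arrays in blue. Symbols are single arrays (circle, square and triangle for replicates 1, 2 and 3) and lines are group means. Mthfd1l minus Mthfd1 is the pair that is lower in IL-18 generated cells, by 0.70.

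IL-18 generated replicate 2 had the lowest value of its group for 7 of the 9 genes that rose, and for 43.4% of the 3935 genes called higher overall. Shmt1 and Mthfd1, the cytosolic folate genes, were the exceptions, with replicate 1 lowest. Replicate 3 was the highest for 6 of the 9 genes, and for 55.5% of genes called higher overall. Each of the 9 genes passed in all 14 alternative fits, including each fit that left out 1 array. With 1 probe set per enzyme gene, the median of probe sets and the fit to all probe sets left the enzyme values themselves unchanged.

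By the distance of values over the 6 arrays (root mean square difference), the genes most like Mthfd2 were Tnfsf8 at 0.124, Chac1 at 0.201 and Dscam at 0.208. Those most like Psat1 were Sesn2 at 0.107, Rora at 0.108 and Shmt2 at 0.116. Shmt2 lay nearest Mfsd2a at 0.105, Hspa9 at 0.108 and Srm at 0.111, and Phgdh nearest Fdps at 0.0907, Cyp51 at 0.0917 and Pim2 at 0.112. With 6 arrays in 2 groups, such a distance mainly reflects a change of similar size.

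Genes around the enzymes were read from lists chosen for their place in the pathway. For scale beside the list counts, 19.7% of all genes were called higher and 16.7% lower at the same threshold. Of 22 measured genes of serine and glycine supply and use, 11 rose, 4 fell and 7 did not pass (median 0.23). The glycine transporter gene Slc6a9 rose by 3.19 ± 0.15 and Slc1a4, a transporter of serine and other neutral amino acids, by 2.98 ± 0.11. Gars, the glycyl-tRNA synthetase gene, rose by 2.03 ± 0.09, and Sfxn1, the mitochondrial serine carrier, by 0.77 ± 0.08. Those that fell were Serinc5 with -1.24 ± 0.07 and Serinc3 with -0.66 ± 0.07, both of the serine incorporator family, Sptlc2, a subunit of serine palmitoyltransferase, with -0.61 ± 0.09, and Sfxn3 with -0.42 ± 0.09. Sfxn1 and Sfxn3 belong to the list and its counts, but were picked to be named after their values were seen.

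Of 19 other folate genes, 8 rose, 3 fell and 8 did not pass (median 0.08). Mmachc, which processes cobalamin for methionine synthase, rose by 1.63 ± 0.08. Fpgs, which adds the glutamate tail that keeps folate in the cell, rose by 1.46 ± 0.09, and Slc19a1, the reduced folate carrier, by 1.23 ± 0.09. The decreases of Ftcd (-0.31 ± 0.10), Folr2 (-0.28 ± 0.08) and Dmgdh (-0.22 ± 0.07) were small, and each call ended in 4 or more of 14 alternative fits, with adjusted p up to 0.129. Aldh1l1, the cytosolic counterpart of Aldh1l2, changed by -0.02 ± 0.08, which did not pass (adjusted p 0.895). It too belongs to its list and was picked to be named after its value was seen. Of 7 genes of glycine cleavage and lipoate, 5 rose, 0 fell and 2 did not pass (median 0.67), with Gcsh, the carrier protein, at 1.16 ± 0.09. The 2 that did not pass encode glycine cleavage enzymes. Gldc changed by -0.06 ± 0.07 (limma adjusted p 0.574) and Amt by -0.11 ± 0.08 (limma adjusted p 0.359).

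Of 15 genes of purine and thymidylate synthesis, most of which use no folate themselves, 11 rose, 1 fell and 3 did not pass (median 0.63). Gart, which uses formyl-folate in purine synthesis, rose by 1.69 ± 0.09, Adsl by 1.26 ± 0.09 and Pfas by 1.21 ± 0.09. Adssl1, an adenylosuccinate synthase gene, fell with -1.53 ± 0.12. Adss, the other such gene in the list, changed by 0.22 ± 0.10, which did not pass (limma adjusted p 0.0991). Of 18 genes of the methionine cycle and transsulfuration, 10 rose, 1 fell and 7 did not pass (median 0.38). Cth, which makes cysteine from cystathionine, rose by 2.90 ± 0.22, and the glutathione synthesis genes Gclm and Gclc by 1.40 ± 0.18 and 1.16 ± 0.08. Mat2b fell with -0.32 ± 0.09, a call that ended without IL-18 generated replicate 2 or 3, with adjusted p up to 0.0667. Upstream, 10 of 15 glycolysis genes rose, 2 fell and 3 did not pass (median 0.56). Pgk1, whose product 3-phosphoglycerate feeds PHGDH, rose by 1.70 ± 0.08, while Slc2a3 and Eno3 fell with -1.24 ± 0.11 and -1.48 ± 0.16.

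**Figure D4:**
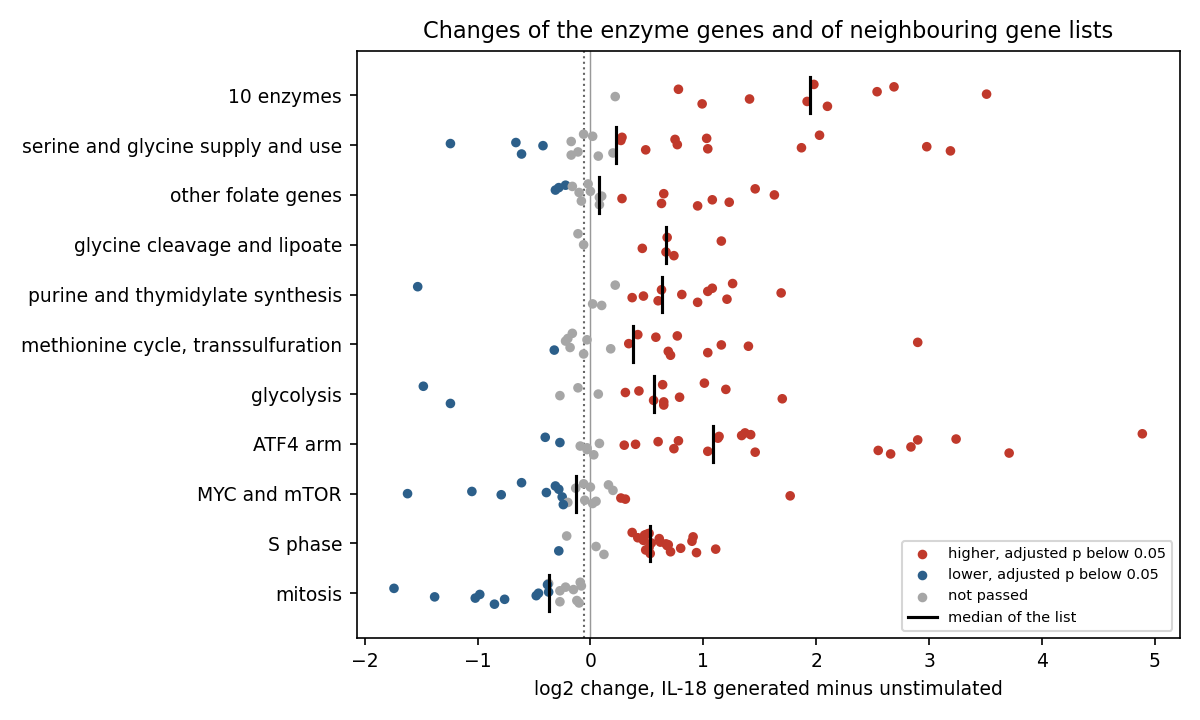
Log2 change (IL-18 generated minus unstimulated) of every measured gene in the enzyme set and in 10 neighbouring lists. Each point is a gene, red where called higher, blue where called lower and grey where it did not pass, black ticks are list medians and the dotted line is the median of all genes (-0.06). The enzyme median of 1.95 stands beside 1.09 for the ATF4 list and -0.37 for mitosis.

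Of 26 genes in the ATF4 list, which held the factor and its upstream regulators, partners and known targets other than the enzymes, 19 rose, 2 fell and 5 did not pass (median 1.09). Atf4 itself read 0.68, 0.55 and 0.70 in IL-18 generated cells, against -0.65, -0.87 and -0.55 in unstimulated cells, and rose by 1.34 ± 0.10. The largest changes were those of Asns, asparagine synthetase, at 4.89 ± 0.11, Slc7a5 at 3.71 ± 0.13 and Chac1 at 3.24 ± 0.11. The 2 decreases, Cebpb with -0.40 ± 0.14 and Eif2ak1 with -0.27 ± 0.09, were lost in 8 and 7 of 14 alternative fits. Myc read 0.78, 0.70 and 0.99 in IL-18 generated cells, against -0.70, -1.0 and -1.14 in unstimulated cells, and rose by 1.77 ± 0.12. In a joint list of 21 genes of the MYC network and the mTOR pathway, 3 rose, 9 fell and 9 did not pass (median -0.13), with 5 lower when IL-18 generated replicate 2 was left out. The MYC antagonist genes Mxd4, Mxd1 and Mxi1 fell with -1.62 ± 0.09, -1.05 ± 0.08 and -0.79 ± 0.10. The other 2 that rose, Rheb, an activator of mTOR, by 0.31 ± 0.10 and Mycn by 0.27 ± 0.08, were lost in 5 and 4 of 14 alternative fits.

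Genes of cell division moved in both directions. Of 26 S phase genes 22 rose, 1 fell and 3 did not pass (median 0.53), with Prim1 at 1.11 ± 0.09, Rfc4 at 0.94 ± 0.09 and E2f1 at 0.91 ± 0.08. The 1 that fell, Rfc2 with -0.28 ± 0.09, was lost in 6 of 14 alternative fits. Of 19 mitosis genes 0 rose, 10 fell and 9 did not pass (median -0.37), with Ccnb2 at -1.74 ± 0.15. Mean values of the mitosis list were -0.65, -0.05 and -0.36 in IL-18 generated replicates 1 to 3, and 0.24, 0.10 and 0.19 in unstimulated arrays. IL-18 generated replicate 2, which had the lowest enzyme mean, was thus the highest of its group for mitosis genes. It was also the highest for the S phase list (0.15, 0.37 and 0.34 in replicates 1 to 3) and for the basophil and mast cell markers given below.

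Markers of other cell types also differed between the groups, and their part in the enzyme changes was not tested. All 11 monocyte markers fell (median -4.28), with list means of -1.75 to -1.69 in IL-18 generated and 1.60 to 2.26 in unstimulated arrays. All 10 neutrophil markers fell (median -2.11), with means of -1.04 to -0.96 against 0.91 to 1.99. All 8 basophil and mast cell markers fell (median -3.05), with means of -2.31, -0.61 and -2.33 in the IL-18 generated arrays (replicates 1 to 3), against 1.74, 2.13 and 0.61 in unstimulated arrays. That count was 4 with limma's robust option. Of 7 B cell markers 6 fell and 1 did not pass (median -0.39; 3 fell when any of the IL-18 generated arrays or unstimulated replicate 1 or 3 was left out), with means of -0.29 to -0.19 against 0.11 to 0.56. Of 10 T cell markers 4 rose, 1 fell and 5 did not pass (median -0.04), with means of 0.07 to 0.35 against -0.20 to -0.01. Of 4 erythroid markers measured among 8 listed, 1 rose, 1 fell and 2 did not pass (median -0.19), with means of -0.12 to 0.11 against 0.09 to 1.15. The mean of 1.15, in unstimulated replicate 2, rests largely on Car1. That gene read 4.96 there, against 0.32 and 0.47 in unstimulated replicates 1 and 3. All 12 NK cell markers fell (median -0.93), with means of -0.85 to -0.62 against 0.59 to 0.83. Because values are centred, these data do not show which markers are near the detection limit.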

How the data were processed

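The deposited table gives 28815 probe sets on 6 Affymetrix arrays as processed by the authors, with RNA labelled by the WT Terminal Labeling Kit per the labels. The deposited values were read as log2. For 97.8% of probe sets, the values lay, within 0.15 of a step, on the single-precision grid of numbers of at least 4. That grid reflects the size of the numbers before centring and cannot fix the base, so every fold value rests on this reading. The sources used here give neither the log base nor how probes were summarized and normalized. Probe set medians lay within 5e-07 of 0. Of the probe sets, 21788 had 1 symbol, 1597 several and 5430 none here. Only those with 1 symbol were used, averaged per gene, without filter or further normalization.

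Groups were compared with limma 3.58.1 (lmFit, eBayes; R 4.3.3) over all 19943 genes, with p-values adjusted by Benjamini-Hochberg and a gene called at an adjusted p below 0.05. P-values, SEs and confidence intervals use limma's moderated variance, which draws each gene's spread between 3 arrays per group towards that of all genes. For genes with widely spread arrays, such as Aldh1l2, the SE is therefore smaller than their own arrays alone would give. The number of arrays limits the precision. Tables were made with Python 3.11.15 and pandas 2.3.3.

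Members and lists were chosen with earlier results of these data known. List genes were matched by symbol, or else by synonym. Genes named are the members, the genes of the sort, up to 3 increases and 3 decreases that passed in each of 10 pathway lists, Atf4 and Myc, and the 3 genes nearest to each of Phgdh, Psat1, Shmt2 and Mthfd2. Sfxn1, Sfxn3, Aldh1l1, Gldc, Amt, Adss, Cd3d and Cd3e were named in addition, after their values were seen. The rule also allowed the extremes of the 7 marker lists, which apart from Cd3g, Cd247 and Car1 are given here as list values only. Alternatives were limma's trend and robust options, array weights, quantile normalization, centring of arrays, the median of probe sets, all probe sets as features, a change of at least 1, leaving out each array, and a block for the replicate number.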

Additional observations from a re-analysis of the deposited data

How the results depend on the processing

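The count of enzyme genes called higher was 9 or 10 over 14 alternative fits, the 10th being Mthfd2l, and 7 when a change of at least 1 was required. The count lower stayed at 0. Leaving out 1 array at a time kept 9 higher and 0 lower. Without 1 array, the changes of the paired differences ran from 1.46 to 1.63 for Shmt2 minus Shmt1, from -0.74 to -0.62 for Mthfd1l minus Mthfd1, from 1.29 to 1.51 for Mthfd2 minus Mthfd1 and from 3.21 to 3.41 for Mthfd2 minus Mthfd2l. With the replicate block, 9 enzyme genes were higher and 0 lower, and 3949 genes were higher overall against 3935 without it. Deviations of same-numbered arrays correlated at 0.24, 0.01 and -0.02 over genes, so equal numbers were not taken as pairs, and for 1 of the 3 numbers both arrays correlated best with their own number. Over all genes, requiring a change of at least 1 left 721 higher and 647 lower, against 3935 and 3332. List counts that moved by more than 1.5 times were small ones or those of the B cell, basophil and joint MYC and mTOR lists. Lower calls ran from 0 to 3 for other folate genes, 0 to 4 for the methionine list, 0 to 2 for the ATF4, S phase and erythroid lists, 1 to 2 for T cell markers, 5 to 9 for the MYC and mTOR list, 3 to 7 for B cell markers and 4 to 8 for basophil and mast cell markers. Higher calls in the MYC and mTOR list ran from 1 to 3. The calls of Ftcd, Folr2, Dmgdh, Cebpb, Eif2ak1, Mycn, Rheb and Rfc2 each ended without any 1 of 4 or 5 single arrays of both groups, with adjusted p up to 0.17. The cause was not tested. At a change of at least 1, higher calls were 6 for serine supply, 4 for other folate genes, 1 for glycine cleavage, 5 for purine synthesis, 4 for the methionine list, 3 for glycolysis, 14 for ATF4 and 1 for S phase, and 3 mitosis genes were lower. Filters on dim genes and the choice of the brightest probe set were not run, because centred values hold no level. The number of arrays, and the missing levels, limit what can be said of Mthfd2l.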
